A study of Drosophila melanogaster with 9 samples.

Results

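Structural cuticle proteins make up much of the insect exoskeleton, and the genes that encode them were examined in RNA-Seq libraries of the larval dorsal organ of *Drosophila melanogaster*. Of the 17421 genes in the files, 121 carry a name that begins with *Cpr* and a digit, *Twdl*, *Lcp* and a digit, *Ccp84* or *Acp65*. They comprised 70 *Cpr* genes, 26 *Twdl* genes, 11 *Lcp65* genes, 7 *Ccp84* genes, *Acp65Aa* and a group of 6 made of *Lcp1* to *Lcp4*, the pseudogene *Lcp1Psi* and *Lcp9*. The rule used gene names alone. The libraries were made from GFP-positive dorsal organs, taken at the third instar, from 4 wild-type samples and from 5 *Orco* mutant ones, each a pool of 20 organs isolated independently. All larvae carried Orco-Gal4 and UAS-mCD-8GFP in a *w* mutant background, both homozygous, so that GFP marked the olfactory receptor neurons (ORNs). The *Orco* mutant larvae were in addition homozygous for the null allele *orco*1 of the odorant co-receptor gene. The organs were freed with collagenase and picked by hand, so each sample held ORNs, support cells and whatever epidermis and cuticle-forming tissue stayed attached.

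Insect cuticle is a matrix of chitin fibres and proteins that epidermal cells secrete at their apical face. Most *Cpr*, *Lcp*, *Ccp84* and *Acp65* genes encode proteins of the CPR family, whose Rebers and Riddiford consensus binds chitin, and *Twdl* genes encode the separate Tweedle family. *Lcp1* to *Lcp4* and *Lcp9* are named for proteins of the larval cuticle and *Acp65Aa* for one of the adult cuticle. Different sets of cuticle genes are used in different body regions and at different times of each molting cycle. The dorsal organ itself ends in a perforated cuticular dome over the ORN dendrites.

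Counts in all ranged from 4432832 to 7005190 in the wild-type libraries and from 4090489 to 9157628 in the *Orco* mutant libraries, and rRNA genes took 33.3% to 53.8% of them. *Orco* counts were 1025, 1750, 1819 and 1784 in wild-type libraries 1 to 4 against 1, 16, 0, 3 and 0 in *Orco* mutant libraries 1 to 5, which matches the labels (log2 fold change -9.25, SE 0.81, adjusted p = 3.75e-04). *Orco* mutant library 3 had a count for 6790 genes against 8427 to 10935 in the others of its genotype, and *Orco* mutant library 5 took 15.4% of its counts from mitochondrial genes against 0.603% to 7.13% in the others of its genotype. Markers of epithelium (*grh*, *shg* and 4 others) summed to 204 to 345 CPM, the count relative to the TMM-scaled library total. Those of neurons (*elav*, *nSyb* and 4 others) summed to 246 to 680 CPM. Those of sensory support cells summed to 4396, 9817, 7079.7 and 4399.6 CPM across the wild-type libraries against 309, 1905, 2228, 3371 and 3837 CPM across the *Orco* mutants, with all wild-type above all *Orco* mutant libraries. In each library most of that sum was the odorant-binding protein gene *Obp56h* (log2 fold change -1.51, SE 0.57, adjusted p = 0.978), and its part in the results was not tested. Of the 6 support cell markers, 2 had a log2 fold change above 0 and 4 below, none at an adjusted p under 0.05. Among single tested genes, 2.68% lay lower in *Orco* mutants without overlap. Muscle markers summed to 89.1 to 2121 CPM, and 6 glue genes of the salivary gland to 725 CPM in wild-type library 3, 103 in *Orco* mutant library 5 and 0 to 14.3 in the others. In such bulk samples, fewer cells of a type and less RNA per cell cannot be told apart.

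Of the 121 cuticle protein genes, 90 had counts in at least 1 of the 9 libraries, but a few genes supplied nearly all of the counts. The 90 genes had 261725 counts in all, and the 12 with the highest mean CPM took 94.1% of these. Counts were found in all 9 libraries for 17 genes and in 1 library for 20 genes, and 30 genes had a count but fewer than 20 in all. The 31 genes with no count included *Acp65Aa*, 11 *Twdl* genes, 15 *Cpr* genes, *Ccp84Ac* and *Ccp84Ae*. The remaining 2 were pseudogenes, and the 3 pseudogenes together had 3 counts, all of *TwdlU*.

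The genes together took 0.434%, 0.135%, 0.497% and 1.18% of all counts in wild-type libraries 1 to 4, in the order of their replicate numbers. In *Orco* mutant libraries 1 to 5 they took 0.314%, 0.245%, 0.475%, 0.141% and 0.975%. The exact binomial 95% interval was 0.132% to 0.138% for the lowest library and 1.17% to 1.19% for the highest, so counting error was small beside the differences between libraries of 1 genotype. Such intervals cover the counting error of reads only, not the spread between libraries. Smart-seq2 amplifies cDNA without marking single molecules, so the error in sampling molecules is not covered either. The mean share was 0.562% ± 0.442 across wild-type libraries (SD, n = 4) against 0.4299% ± 0.328 across *Orco* mutants (SD, n = 5), and the ranges overlapped over nearly their whole width. Without wild-type library 4 the wild-type mean was 0.355%, and without *Orco* mutant library 5 the *Orco* mutant mean was 0.294%.

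**Figure D1:**
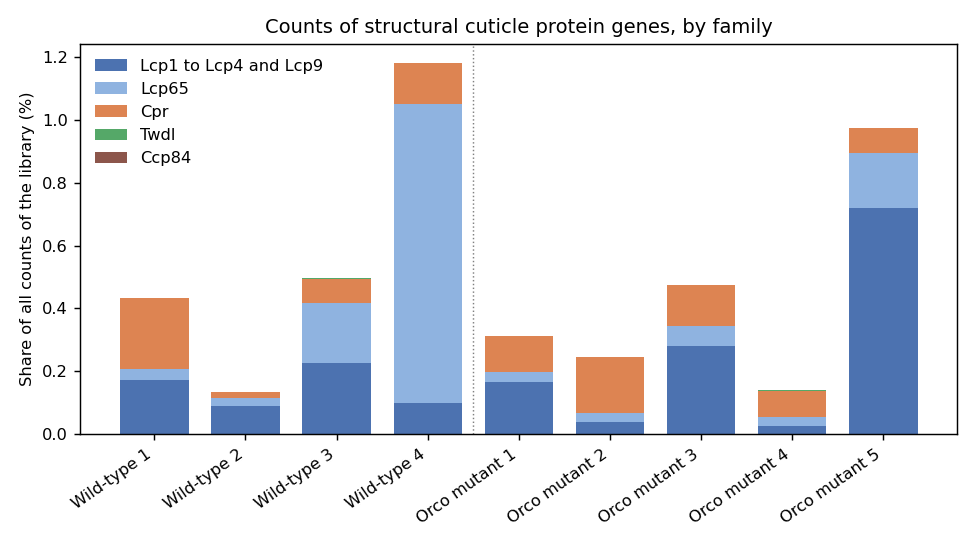
Share of all counts of each library (%, bars from 0) that came from structural cuticle protein genes, stacked by family, in 4 wild-type and 5 *Orco* mutant libraries. Wild-type 4 reaches 1.18%, 80.5% of it from *Lcp65* genes, *Orco* mutant 5 reaches 0.975%, mostly *Lcp1* to *Lcp4* and *Lcp9*, and *Twdl* and *Ccp84* genes are barely visible in any library.

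The gene that supplied the most cuticle counts differed between libraries of 1 genotype, although some libraries shared it. *Lcp1* supplied the most in wild-type library 2 (34.4% of cuticle counts) and in *Orco* mutant libraries 1, 3 and 5 (27.9%, 29.6% and 34.8%). *Cpr11B* came first in wild-type library 1 (32.6%), and *Lcp65Ac* in wild-type libraries 3 and 4 (36.0% and 80.0%). *Cpr49Ac* came first in *Orco* mutant libraries 2 and 4, with 53.0% and 47.6%. These 2 libraries were also the most alike of any pair of 1 genotype over all genes compared (Spearman 0.928 across genes, against 0.432 to 0.736 for the other pairs). Of the 32 genes tested, 11 had their highest level in *Orco* mutant library 5 (34.4%, against 14.3% of all 8160 tested genes) and 6 in wild-type library 4 (18.8%, against 10.6%). None had it in wild-type library 2, where 14.8% of all tested genes were highest.

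The number of cuticle protein genes with at least 1 count was 47, 27, 48 and 36 in the wild-type libraries and 52, 43, 39, 55 and 56 in the *Orco* mutant libraries. The means were 39.5 ± 9.95 (SD, n = 4) and 49.0 ± 7.58 (SD, n = 5), and the ranges overlapped. At a limit of 10 counts the numbers were 30, 24, 36 and 30 against 42, 31, 32, 25 and 42. Brought to the smallest library total, the expected numbers averaged 38.9 for wild-type libraries against 46.3 for *Orco* mutants. Of all genes, 9499, 8457, 8892 and 8975 had a count in wild-type libraries 1 to 4 (mean 8956). In *Orco* mutant libraries 1 to 5 the numbers were 9152, 10148, 6790, 10935 and 8427 (mean 9090). By family, 16 to 35 of the 70 *Cpr* genes, 3 to 9 of the 11 *Lcp65* genes and 2 to 8 of the 26 *Twdl* genes were found in a library. All 5 genes *Lcp1* to *Lcp4* and *Lcp9* were found in every library.

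**Figure D2:**
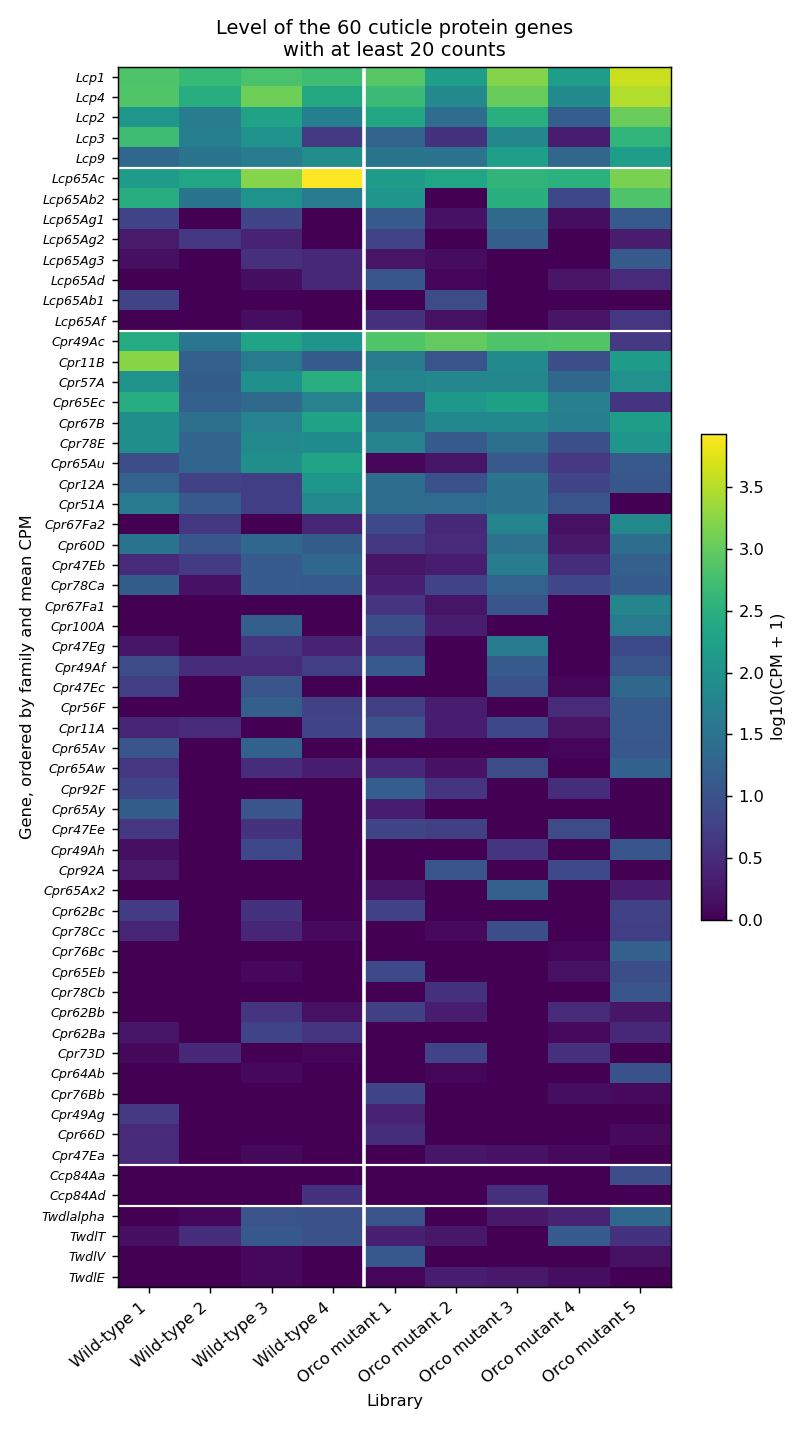
Level of the 60 structural cuticle protein genes with at least 20 counts, as log10(CPM + 1) on the colour scale, in 9 libraries (columns) with white lines between genotypes and families. The rows of *Lcp1*, *Lcp4* and *Lcp65Ac* are bright in every library, *Cpr11B* is bright in wild-type 1, *Cpr49Ac* is dark in *Orco* mutant 5, and many lower rows are dark in several libraries of both genotypes.

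None of the 32 cuticle protein genes with enough counts to be tested differed between the genotypes at an adjusted p under 0.05. Over all 8160 tested genes the same test (edgeR quasi-likelihood, Benjamini-Hochberg adjusted) called 0.0368%, which were *Orco*, *CG34337* and *CG14455*, all lower in *Orco* mutant dorsal organs. At an unadjusted p under 0.05 it called 4 of the 32 (12.5%, against 4.96% of all genes), *Cpr67Fa2* with a fold change above 0 (1 gene, against 2.21%) and *Cpr65Au*, *Lcp65Ac* and *Cpr11B* with one below 0 (3 genes, against 2.76%). The smallest adjusted p of a cuticle protein gene was 0.654. In no tested cuticle gene did the libraries of the genotypes separate without overlap, against 3.87% of all tested genes. DESeq2 called 1 of the 46 cuticle genes it gave an adjusted p, *Cpr67Fa1* (of all genes it called 1.24%, 0.526% as higher and 0.716% as lower), which edgeR's filter had removed. limma-voom called none of the 32 (0.147% of all genes) and edgeR with no filter none of 90 (0.0392% of all genes, 0.00784% as higher and 0.0314% as lower).

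The tested genes held 98.9% of the cuticle counts and comprised 22 *Cpr* genes, *Lcp1* to *Lcp4*, *Lcp9*, 3 *Lcp65* genes and 2 *Twdl* genes. A further 58 genes had counts but did not pass the filter, which asks for enough counts in enough libraries. Of the 32, 18 had a log2 fold change above 0 (56.2%, against 49.9% of all tested genes), with a median of 0.44 against -0.0014 over all genes. Without *Orco* mutant library 5 the median was -0.24, over the 28 cuticle genes that then passed the filter. The median within-genotype SD of log2(CPM + 0.5) was 1.95 in these genes, against 1.42 over all tested genes. The median SE of the log2 fold change was 1.31 against 0.97. The 2 sets were not matched for level, and some tested cuticle genes were low with libraries at 0, as *Cpr62Bc* (mean 1.84 CPM). A larger spread is thus not shown to be particular to cuticle genes. No 95% interval of a tested cuticle gene lay within 2-fold in either direction, so differences of that size could not be bounded here.

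**Figure D3:**
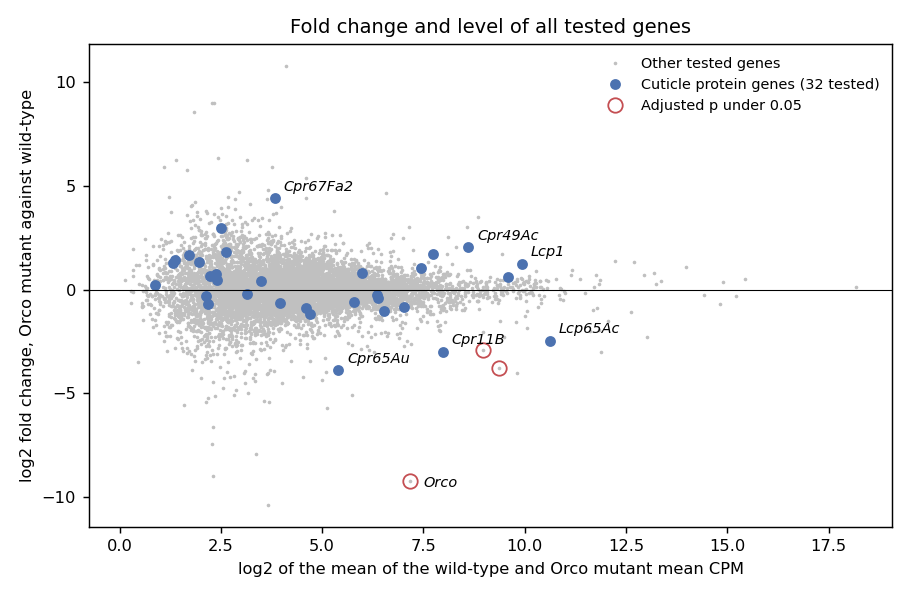
Log2 fold change of *Orco* mutant against wild-type (y) and log2 mean CPM (x) of all 8160 tested genes (grey) with the 32 structural cuticle protein genes (blue) and the genes past an adjusted p of 0.05 (red rings). The blue points scatter from -3.88 (*Cpr65Au*) to 4.42 (*Cpr67Fa2*), and none is ringed.

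Among the larval cuticle proteins, *Lcp1* to *Lcp4* lie within 8.38 kb of chromosome 2R (8430115 to 8438495, Release 6), with *Lcp1Psi* among them. The 4 genes summed to 2072, 812, 2083 and 811 CPM in wild-type libraries 1 to 4. In *Orco* mutant libraries 1 to 5 they summed to 1549.6, 261, 3001, 254 and 8564 CPM. The spread was wider in *Orco* mutant dorsal organs, where libraries 2 and 4 lay below and libraries 3 and 5 above all wild-type libraries. Mitochondrial genes took 1.11% and 0.603% of the counts in *Orco* mutant libraries 2 and 4, and 7.13% and 15.4% in libraries 3 and 5, and their part in the result was not tested. The 10 muscle markers together summed to 394, 2121, 487 and 251 CPM in wild-type libraries 1 to 4. In *Orco* mutant libraries 1 to 5 they summed to 577, 89.1, 1474, 360.1 and 1482 CPM, and their part was not tested either.

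*Lcp1*, per kb of transcript the second highest cuticle gene at 1499 CPM per kb, was at 699, 435, 641 and 518 CPM across the wild-type libraries against 831, 162, 1586, 159.8 and 4108 CPM across the *Orco* mutants. Its log2 fold change was 1.26 (SE 0.78, adjusted p = 0.997), and 0.26 without *Orco* mutant library 5. *Lcp4* (1257 CPM per kb) was at 733, 283, 1155 and 239.8 CPM across the wild-type libraries against 476, 71.3, 1057, 78.5 and 2984 CPM across the *Orco* mutants. Its fold change was 0.63 on the log2 scale (SE 0.92, adjusted p = 0.997), and -0.52 without *Orco* mutant library 5. For *Lcp2* (276 CPM per kb) the libraries gave 126, 43.6, 185 and 49.1 CPM and 226, 24.7, 293, 14.6 and 1085 CPM, with library 5 again the highest of its genotype. The log2 fold change of *Lcp2* was 1.70 (SE 0.995, adjusted p = 0.997), and 0.46 without that library.

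*Lcp3* (206 CPM per kb) ranged from 3.64 to 513 CPM within wild-type libraries and from 1.01 to 386 CPM within *Orco* mutant libraries. Its log2 fold change was -0.83 (SE 1.40, adjusted p = 0.997) and 0.86 without wild-type library 1. *Lcp9* lies apart from them on chromosome 2R and had 20.3, 31.9, 43.6 and 87.2 CPM across the wild-type libraries against 32.4, 30.7, 163, 18.7 and 160.3 CPM across the *Orco* mutants. The log2 fold change of *Lcp9* was 0.82 (SE 0.70, adjusted p = 0.997). An antisense RNA gene overlaps *Lcp9*, and the library preparation does not mark strand, so reads of the 2 genes cannot be told apart where they overlap. *Lcp1* and *Lcp2* encode closely similar proteins, and kallisto may split reads between them, but the sum of both, 825, 479, 827 and 567 CPM against 1057, 187, 1879, 174 and 5194 CPM, does not depend on that.

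**Figure D4:**
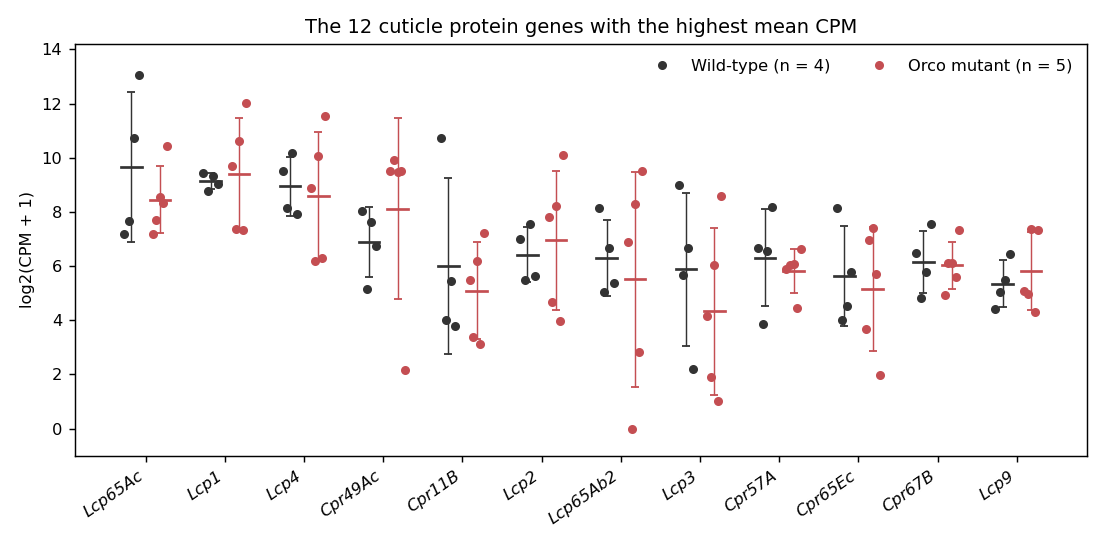
Level of the 12 cuticle protein genes with the highest mean CPM, as log2(CPM + 1), with 1 point per library, a bar at the mean and whiskers of 1 SD of the log2 values, for wild-type (black, n = 4) and *Orco* mutant (red, n = 5). The genotypes overlap in every gene, and single libraries lie far from the rest, as wild-type 1 in *Cpr11B* and *Orco* mutant 5 in *Cpr49Ac*.

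Another group of neighbouring cuticle genes spans 31.2 kb of chromosome 3L (6130386 to 6161589) at cytological band 65A and holds 19 genes, the 11 *Lcp65* genes, *Acp65Aa* and 7 *Cpr65* genes. Counts were found for 16 of the 19, and 5 were tested. Mean levels differed widely between neighbours: *Lcp65Ac* had 2875 CPM per kb, the highest of any cuticle gene. The next gene along the chromosome, *Lcp65Ab2*, had 431 CPM per kb. Wild-type library 4 alone held 65.9% of the summed CPM of *Lcp65Ac*. In wild-type library 1, and in no other, *Lcp65Ab2* had more CPM than *Lcp65Ac* (281 against 146). *Cpr65Au* had 75.1 CPM per kb, and the other 16 genes had at most 12.6 CPM per kb (*Lcp65Ag1*). *Acp65Aa*, *Cpr65Az* and the pseudogene had no count.

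*Lcp65Ac* (3L, 6144819 to 6145393) was at 146, 202, 1678 and 8608 CPM in wild-type libraries 1 to 4. In *Orco* mutant libraries 1 to 5 it was at 145, 208, 378, 323 and 1377 CPM. Wild-type libraries 3 and 4 lay above all *Orco* mutant libraries, whereas wild-type libraries 1 and 2 lay with the lower *Orco* mutants. The log2 fold change was -2.45 (SE 1.03, interval -4.67 to -0.23, adjusted p = 0.980) and -0.47 without wild-type library 4. *Lcp65Ab2* was at 281, 31.9, 100.3 and 40.5 CPM across the wild-type libraries against 117, 0, 315, 6.18 and 721 CPM across the *Orco* mutants, with a log2 fold change of 1.03 (SE 1.39, adjusted p = 0.997) that was -0.05 without *Orco* mutant library 5.

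*Lcp65Ab1* and *Lcp65Ab2* are near-identical copies, so how kallisto divided reads between them is uncertain. In *Orco* mutant library 2 all 87 counts of the pair were given to *Lcp65Ab1*, and in every other library but wild-type 1 all were given to *Lcp65Ab2*. Their sum, 287, 31.9, 100.3 and 40.5 CPM against 117, 7.14, 315, 6.18 and 721 CPM, does not depend on that division. The 3 copies *Lcp65Ag1*, *Lcp65Ag2* and *Lcp65Ag3* summed to 6.47, 3.19, 9.73 and 1.82 CPM across the wild-type libraries against 18.5, 0.902, 36.7, 0.378 and 25.3 CPM across the *Orco* mutants. As with *Lcp1* to *Lcp4*, *Orco* mutant libraries 2 and 4 were the lowest and 3 and 5 the highest of their genotype in both sums.

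*Cpr65Au* (3L, 6131242 to 6132109), a CPR gene near an end of the cluster, had the smallest p of the 32 tested cuticle genes. It was at 7.59, 18.3, 88.6 and 201 CPM across the wild-type libraries against 0.122, 0.656, 11.6, 3.53 and 11.4 CPM across the *Orco* mutants, or 78.8 ± 88.9 CPM across wild-type libraries (SD, n = 4) against 5.46 ± 5.66 CPM across *Orco* mutants (SD, n = 5). The genotypes overlapped only through wild-type library 1, which lay below *Orco* mutant libraries 3 and 5. The log2 fold change was -3.88 (SE 1.19, interval -6.46 to -1.31, unadjusted p = 0.00627, adjusted p = 0.654). Across the alternatives the adjusted p lay between 0.0687 (DESeq2) and 0.9996, and the fold change between -4.76 and -2.82. An antisense RNA gene overlaps *Cpr65Au*, and the counts cannot separate the 2 strands.

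**Figure D5:**
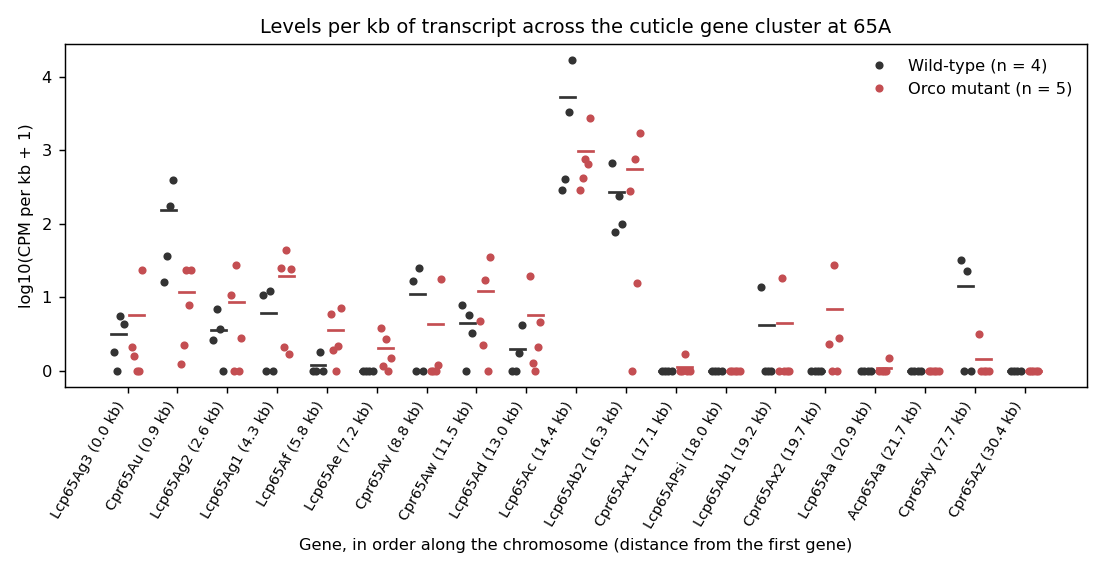
Level per kb of transcript, as log10(CPM per kb + 1), of the 19 genes of the 65A cluster in chromosome order, with 1 point per library and a bar at the genotype mean (black, wild-type, n = 4; red, *Orco* mutant, n = 5). *Lcp65Ac* and *Lcp65Ab2* stand above the other genes, *Cpr65Au* comes next, and most genes have libraries at 0 in both genotypes.

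Of the 70 *Cpr* genes, 55 had a count and 22 were tested, 11 with a log2 fold change above 0 and 11 below (median 0.01). Their summed level was 2723, 183, 719 and 1185 CPM in wild-type libraries 1 to 4 and 1080.1, 1329, 1452, 924 and 929.5 CPM in *Orco* mutant libraries 1 to 5. The *Orco* mutant libraries lay within the wild-type range, which wild-type library 2 bounded below and wild-type library 1 above. In wild-type library 1, *Cpr11B* alone made up 1716 CPM.

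*Cpr49Ac* (2R, 12386666 to 12390057) was the *Cpr* gene with the most counts. Its level was 262, 34.4, 199 and 107 CPM across the wild-type libraries against 731, 975, 709.9, 734 and 3.47 CPM across the *Orco* mutants. *Orco* mutant libraries 1 to 4 lay close together and all above the wild-type libraries, whereas library 5 lay below them all. The log2 fold change was 2.07 (SE 0.96, interval -0.02 to 4.16, adjusted p = 0.992), and without *Orco* mutant library 5 it was 2.39 with an adjusted p of 0.192. The files list 6 transcripts of *Cpr49Ac*, and all 6 had counts in *Orco* mutant libraries 1 to 4. In library 5 only Cpr49Ac-RA (11.4 estimated counts) and Cpr49Ac-RG (2.6) had any. Of the wild-type libraries, none had counts of all 6.

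*Orco* mutant library 5 was also the lowest for a pair of enzymes of cuticle tanning. *Ddc*, the dopa decarboxylase, was at 71.9, 44.7, 139 and 86.5 CPM in the wild-type libraries, 139, 144, 292 and 155 CPM in *Orco* mutant libraries 1 to 4 and 1.24 CPM in library 5. *Pu*, the GTP cyclohydrolase that supplies the cofactor of tyrosine hydroxylase, was at 48.0, 14.7, 117 and 107 CPM, 82.4, 61.2, 112 and 23.2 CPM and 0.496 CPM in the same order. In the same list of tanning and pigmentation genes, *yellow-b* and *yellow-d2* were highest of all 9 libraries in library 5, at 236 and 139.5 CPM. These 4 genes were named after their values were seen.

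*Cpr11B* (X, 12553124 to 12554235) was at 1716, 15.2, 42.9 and 12.9 CPM across the wild-type libraries against 43.7, 9.52, 72.8, 7.69 and 149.7 CPM across the *Orco* mutants. Its log2 fold change of -2.98 (SE 1.34, adjusted p = 0.992) rested on wild-type library 1 and was 1.25 without it. *Cpr65Ec*, on 3L outside the cluster, was likewise highest in wild-type library 1, at 284, 15.2, 21.8 and 54.4 CPM across the wild-type libraries against 11.7, 125, 171, 51.3 and 2.97 CPM across the *Orco* mutants. The log2 fold change of *Cpr65Ec* was -0.38 (SE 1.02, adjusted p = 0.997) and 1.25 without that library. Wild-type library 1 stood apart in the same way for 2 cuticle protein genes outside the families, *CG16885* (Vajk2 in the annotation) at 1384 CPM and *CG16884* (Vajk3) at 1039 CPM. Their next highest libraries were *Orco* mutant 5, with 366 and 370.2 CPM. The gene *hwt* overlaps *Cpr11B* on the opposite strand, which the libraries do not separate.

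Wild-type library 4, the library with the most *Lcp65Ac*, was also the highest of all 9 for *Cpr57A*, *Cpr12A* and *Cpr67B*. *Cpr57A* was at 99.8, 13.5, 93.7 and 288 CPM across the wild-type libraries against 58.6, 64.3, 66.1, 20.7 and 98.4 CPM across the *Orco* mutants (log2 fold change -1.01, SE 0.66, adjusted p = 0.997), and its log2 fold change was -0.16 without wild-type library 4. *Cpr12A* was at 16.5, 4.79, 4.44 and 118 CPM and 23.9, 8.78, 31.4, 5.68 and 10.4 CPM, and its log2 fold change of -1.16 (SE 0.97, adjusted p = 0.997) was 0.90 without wild-type library 4. *Cpr67B* varied less, with 89.5, 27.0, 54.4 and 185 CPM across the wild-type libraries against 29.9, 68.4, 68.9, 47.6 and 161 CPM across the *Orco* mutants. Its fold change was -0.25 on the log2 scale (SE 0.58, adjusted p = 0.997), and 0.40 without wild-type library 4. *Cpr57A* overlaps the odorant-binding protein gene *Obp57d* on the same strand, so part of its counts could belong to that gene.

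*Cpr67Fa1* and *Cpr67Fa2*, neighbouring genes named as copies on 3L (10889990 to 10890700 and 10891714 to 10892516), had far more counts in *Orco* mutants than in wild-type dorsal organs, mainly through *Orco* mutant libraries 3 and 5. *Cpr67Fa2* was at 0, 3.37, 0 and 1.56 CPM across the wild-type libraries against 6.46, 1.72, 57.6, 0.505 and 69.6 CPM across the *Orco* mutants. Its log2 fold change was 4.42 (SE 1.74, interval 0.68 to 8.20, adjusted p = 0.980). *Cpr67Fa1* had no count in the wild-type libraries and 25, 8, 38, 0 and 245 counts in *Orco* mutant libraries 1 to 5. Against a floor of 3 counts over the wild-type libraries, its pooled level was at least 66.0-fold higher in *Orco* mutants. Without *Orco* mutant library 5 it was at least 16.7-fold higher. These bounds cover counting error in the wild-type libraries only, not the spread between libraries or the division of reads between the copies. The adjusted p of *Cpr67Fa1* was 0.00752 in DESeq2 and 0.458 in edgeR with no filter. Reads may be divided between the copies, and their sum was 0, 3.37, 0 and 1.56 CPM across the wild-type libraries against 9.50, 2.38, 68.1, 0.505 and 130.3 CPM across the *Orco* mutants, with *Orco* mutant libraries 2 and 4 within the wild-type range.

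*Cpr67Fa1* was 1 of 6 cuticle genes with at least 20 counts, all of them in *Orco* mutant libraries (6 of 60 such genes, against 3.68% of all genes with at least 20 counts). None was limited to wild-type libraries (0.830% of all genes). Each of the other 5 came mostly from 1 library, and each bound is against the same floor and covers counting error only. *Cpr78Cb* had 34 counts in library 2 and 40 in library 5 (at least 15.5-fold, and 7.996-fold without library 5). *Cpr65Ax2* had 6, 54 and 4 counts in libraries 1, 3 and 5 (at least 13.4-fold), and without library 3 the bound was 2.32-fold. *Cpr76Bc* had 1 count in library 4 and 60 in library 5 (at least 12.7-fold, with 1 count left without library 5). *Cpr76Bb* had 46, 3 and 1 counts in libraries 1, 4 and 5 (at least 10.4-fold, and 1.08-fold without library 1). *Ccp84Aa* had 30 counts, all in library 5 (at least 6.26-fold). The highest library held 78.0% to 100% of the summed CPM of each of the 6 genes. Genotypes also differed in the number of libraries, 4 against 5, and in total depth.

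*Cpr47Eg* was the remaining *Cpr* gene among those with the smallest p, at 0.670, 0, 2.96 and 1.43 CPM across the wild-type libraries against 3.29, 0, 40.5, 0 and 6.69 CPM across the *Orco* mutants. All but *Orco* mutant library 3 were at 6.69 CPM or less. Its log2 fold change was 2.97 (SE 2.01, adjusted p = 0.997). The tested *Cpr* genes not described so far (*Cpr78E*, *Cpr51A*, *Cpr60D* and 10 others) had mean levels of 1.84 to 53.6 CPM and log2 fold changes of -0.86 to 1.66, each with an adjusted p of 0.997.

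*Cpr78E* was found in every library and was at 91.7, 18.4, 69.8 and 82.1 CPM across the wild-type libraries against 57.1, 11.98, 27.8, 8.20 and 114.7 CPM across the *Orco* mutants, with *Orco* mutant libraries 2 and 4 the lowest and library 5 the highest, which was also so for *Lcp1*, *Lcp2* and *Lcp4*. *Cpr60D* was also lowest in *Orco* mutant libraries 2 and 4, at 32.1, 10.5, 20.3 and 13.5 CPM across the wild-type libraries against 3.41, 2.05, 29.5, 0.883 and 25.0 CPM across the *Orco* mutants. *Cpr51A* differed from these in *Orco* mutant library 5, where it had no count, against 23.5, 22.8, 30.0 and 9.46 CPM in *Orco* mutant libraries 1 to 4 and 39.1, 11.7, 4.44 and 69.2 CPM in the wild-type libraries. At 0 counts of the 4889970 of that library, up to 3 counts are allowed.

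The untested genes with counts showed the same unevenness. *Cpr100A* had 316 counts, 68 in 1 wild-type library and 248 in 3 *Orco* mutant libraries, and *Cpr92A* had 171, of which 167 were in 2 *Orco* mutant libraries. *Cpr65Ay* had 106 of its 114 counts in 2 wild-type libraries and 8 in 1 *Orco* mutant library. *Cpr65Av* had 119 counts from 2 wild-type libraries against 44 from 2 *Orco* mutants, and *Cpr62Ba* 52 in 3 and 9 in 2. By chromosome arm, 15 of the 28 cuticle protein genes on 2R, 11 of 47 on 3L, 4 of 8 on X, 2 of 32 on 3R and 0 of 6 on 2L were tested, and 22, 38, 6, 20 and 4 of them had a count.

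The other families were close to the limit of detection. The 7 *Ccp84* genes, a cluster of 18.2 kb on 3R (6686728 to 6704903) that begins 1.27 Mb beyond the end of *Orco*, had 82 counts in all, from 5 genes. Their summed level was 2.73 CPM in wild-type library 4 and 0 in the other wild-type libraries. In *Orco* mutant libraries 1 to 5 it was 0, 0, 3.03, 0.631 and 11.2 CPM. *Acp65Aa* had no count in any library, which allows up to 3 counts in the 9 libraries together.

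The 26 *Twdl* genes had 711 counts in all, from 15 genes, and summed to 4.69, 3.19, 21.4 and 16.9 CPM across the wild-type libraries against 21.9, 3.12, 1.65, 15.4 and 23.5 CPM across the *Orco* mutants. Only *Twdlalpha* and *TwdlT* were tested. *Twdlalpha* was at 0, 0.177, 9.10 and 8.44 CPM across the wild-type libraries against 9.02, 0, 0.827, 1.39 and 19.6 CPM across the *Orco* mutants (log2 fold change 0.47, SE 1.75, adjusted p = 0.997). For *TwdlT* the values were 0.446, 2.31, 11.2 and 8.31 CPM and 1.22, 0.820, 0, 12.5 and 2.73 CPM, with a log2 fold change of -0.68 (SE 1.45, adjusted p = 0.997). High and low libraries occurred in both genotypes for either gene. Each overlaps another gene on the same strand, *Twdlalpha* with *CG32568* and *TwdlT* with *RYa-R*, so part of their counts could come from those genes.

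Other genes of cuticle formation, in 6 lists, gave no call either (0 of 58 tested, against 0.0368% of all genes). DESeq2 and edgeR with no filter also called none, and 4 of the 58 had an unadjusted p under 0.05, against 4.96% of all genes. Of the chitin synthesis and organisation genes, 16 of 18 were tested, 8 above and 8 below 0, with a median log2 fold change of 0.13. *Gasp*, a chitin-binding protein, had the highest CPM and the smallest p of the list, at 159 ± 91.4 CPM across wild-type libraries (SD, n = 4) against 311 ± 96.3 CPM across *Orco* mutants (SD, n = 5) (log2 fold change 0.96). *obst-E*, another chitin-binding protein, was at 108 ± 58.4 CPM across wild-type libraries (SD, n = 4) against 64.3 ± 59.3 CPM across *Orco* mutants (SD, n = 5). Of 16 chitin turnover genes 11 were tested, 2 above and 9 below 0 (median -0.49). *Idgf3*, a chitinase-like protein, was at 235, 179, 221 and 219 CPM across the wild-type libraries against 76.4, 144, 157, 102 and 171 CPM across the *Orco* mutants, with all wild-type above all *Orco* mutant libraries, as in 2.68% of all tested genes. Its log2 fold change was -0.72 (SE 0.30, adjusted p = 0.980). *Idgf4* was at 541 ± 124 CPM across wild-type libraries (SD, n = 4) against 373 ± 133 CPM across *Orco* mutants (SD, n = 5).

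Of 14 tanning and pigmentation genes 12 were tested, 7 above and 5 below 0 (median 0.95). *ple*, the tyrosine hydroxylase that begins catecholamine synthesis, was at 99.5, 51.8, 399.8 and 60.5 CPM across the wild-type libraries against 348, 280.2, 484, 351 and 194 CPM across the *Orco* mutants (log2 fold change 1.12, SE 0.56, adjusted p = 0.997). *b*, which makes the beta-alanine used in tanning, was at 2.46, 1.60, 2.33 and 0.130 CPM and 15.2, 25.6, 0, 26.1 and 6.195 CPM (log2 fold change 3.17, SE 1.46, adjusted p = 0.992). Of 10 cuticle proteins outside the families 3 were tested, all below 0 (median -1.16). Of these, *CG16885* and *CG16884* were at 1384 and 1039 CPM in wild-type library 1, but at 9.87 to 70.7 and 12.1 to 61.6 CPM in the other wild-type libraries and at 35.8 to 366 and 20.7 to 370.2 CPM across the *Orco* mutants. The pupal cuticle protein *Pcp* was at 421, 87.4, 267 and 652 CPM across the wild-type libraries against 317, 219, 101, 182 and 53.8 CPM across the *Orco* mutants. Of 11 zona pellucida proteins of the apical matrix 6 were tested, 5 above and 1 below 0 (median 0.17), with *pio* at 194 ± 78.0 CPM across wild-type libraries (SD, n = 4) against 254 ± 131 CPM across *Orco* mutants (SD, n = 5). *tyn* had the smallest p of that list, at 0.223, 0.177, 0 and 2.21 CPM across the wild-type libraries against 43.1, 5.004, 0.276, 3.28 and 1.73 CPM across the *Orco* mutants, the highest being library 1.

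Of 11 genes of the molting hormone response 10 were tested, 6 above and 4 below 0 (median 0.23). The hormone receptor gene *EcR* was at 125 ± 54.7 CPM across wild-type libraries (SD, n = 4) against 117 ± 29.0 CPM across *Orco* mutants (SD, n = 5), a difference within the spread of either genotype. *br*, a transcription factor that the hormone induces, was at 158 ± 99.3 CPM across wild-type libraries (SD, n = 4) against 153 ± 62.9 CPM across *Orco* mutants (SD, n = 5). *Eip75B*, a nuclear receptor, had the smallest p of the list, at 74.6 ± 43.3 CPM across wild-type libraries (SD, n = 4) against 131 ± 51.8 CPM across *Orco* mutants (SD, n = 5) (log2 fold change 0.81, SE 0.44, adjusted p = 0.997).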

How the data were processed

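RNA of dorsal organs was measured in 9 samples, 4 of them wild-type, with 1 library each. Per the labels and the study's methods, cDNA was made with Smart-seq2, cut with Nextera XT, which keeps no strand, and sequenced as single-end reads. The submitters' processing notes list CASAVA 1.8.2, cutadapt 1.9.1 and kallisto 0.43.0. With kallisto the authors assigned reads to FlyBase transcripts, and tximport gave gene totals. The deposited values are thus estimated counts with no normalization. Another *Orco* mutant sample, set aside by the authors, was not analysed here.

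The estimated counts were first rounded. Genes were retained with filterByExpr of edgeR 4.0.16 (R 4.3.3; minimum count 10, minimum total 15), which left 8160 of 12748 genes with a count, and libraries were scaled with TMM. The edgeR quasi-likelihood test compared genotypes with no covariate, and Benjamini-Hochberg adjustment over all tested genes at 0.05. A small prior count enters the log2 fold changes of edgeR, whereas the SE and the 95% interval come from the coefficient without it. That SE is the size of the coefficient divided by the square root of the quasi-likelihood F statistic, and the interval is built from it. Values per kb divide the mean CPM by the transcript length of the gene. Shares of counts have exact binomial (Clopper-Pearson) 95% intervals. A count of 0 allows up to 3 counts, and a fold against a genotype at 0 was taken against 3 counts over its libraries. Gene positions were taken from an Ensembl annotation (Release 6 genome), in which all 121 genes were found by identifier, and 135 of the 137 genes of the other lists were found. No 2 libraries of 1 genotype agreed within sampling noise, and *Orco* mutant libraries 2 and 4 were the closest pair.

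The text names every cuticle protein gene past the threshold, the 12 with the highest mean CPM, the 10 tested with the smallest p, the highest of each family, those whose genotypes did not overlap, and those with at least 20 counts in 1 genotype only. Of each related list it names the 2 highest genes and the one with the smallest p, or some of these. Any other gene was named with its values known. The genes and lists were chosen with earlier results of these data known. Alternatives tried were DESeq2 1.42.0, limma-voom (limma 3.58.1), RLE size factors, no filter, and 10 counts or more in at least 5 libraries. Further ones were rRNA genes left out, the replicate number as a block (without *Orco* mutant library 5) and leaving out each library. For shares and detection, other denominators, a limit of 10 counts and a common depth were used. Family sums under other scalings were chosen after seeing the data.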

Additional observations from a re-analysis of the deposited data

Results flagged for a closer look

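In 54 groups of 4 or 5 libraries, 17 had a highest or lowest library that stood far from the rest of its genotype by Dixon's criterion, and in 2 of the 17 all other libraries were at 0. Chance gives this in about 1 of 20 groups of independent, normally distributed values. CPM values are skewed and the sums share genes with single genes, so the 17 cannot be read as an excess. *Orco* mutant library 5 was the one that stood apart in 10 of them. It was the highest *Orco* mutant library for the summed *Lcp65* genes (2129 CPM, against 217 to 730 in the others), the summed *Ccp84* genes (11.2 CPM, others 0 to 3.03), *Lcp2* (1085 CPM, others 14.6 to 293), *Lcp3* (386 CPM, others 1.01 to 64.2) and *Lcp65Ac* (1377 CPM, others 145 to 378). It was also the highest for *Cpr67Fa1* (60.7 CPM, others 0 to 10.5), *Cpr76Bc* (14.9 CPM, others 0 to 0.126), *Cpr78Cb* (9.91 CPM, others 0 to 2.79) and *Ccp84Aa* (7.43 CPM, others 0). For *Cpr49Ac* it was the lowest (3.47 CPM, against 710 to 975). *Orco* mutant library 3 was the highest of its genotype for *Cpr65Ax2* (14.9 CPM, others 0 to 0.991) and *Cpr47Eg* (40.5 CPM, others 0 to 6.69), and library 1 for *Cpr76Bb* (5.61 CPM, others 0 to 0.378).

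Among wild-type libraries, library 1 was the highest for *Cpr11B* (1716 CPM, others 12.9 to 42.9) and *Cpr65Ec* (284 CPM, others 15.2 to 54.4). Library 4 was the highest for *Cpr12A* (118 CPM, others 4.44 to 16.5) and for the summed *Ccp84* genes (2.73 CPM, others 0).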

How the results depend on the processing

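*Orco* passed the test in every alternative. No cuticle protein gene did, other than *Cpr67Fa1*, the 1 gene that DESeq2 called higher. Among 17 named genes and all alternatives, 248 of 265 fold changes kept their sign and none passed the threshold. With limma-voom the log2 fold change turned to -0.0091 for *Lcp1*, -0.63 for *Lcp4*, -3.74 for *Lcp65Ab2* and -0.075 for *Lcp9*. Pairing by replicate number was not seen: the deviations of same-numbered libraries correlated at 0.03, -0.10, -0.02 and -0.02. Other pairs of libraries across the genotypes gave -0.07 to 0.10. With so few libraries this check cannot exclude a shared preparation. The fit with the replicate block left out *Orco* mutant library 5, which has no wild-type library of its number, so its values mix both changes. That fit called no cuticle protein gene. Its fold change was -0.41 for *Lcp1*, -0.25 for *Lcp2*, -1.09 for *Lcp4*, -2.08 for *Lcp65Ab2*, 0.34 for *Cpr12A* and 0.83 for *Cpr65Ec*. Without library 5 and with no block, the values were 0.26, 0.46, -0.52, -0.054, -1.04 and -0.068 in that order. Leaving out each library gave ranges of -2.995 to 0.86 for *Lcp3*, -0.52 to 1.11 for *Lcp4*, -0.054 to 2.003 for *Lcp65Ab2*, -3.75 to 1.25 for *Cpr11B*, -1.57 to 0.90 for *Cpr12A*, -0.97 to 1.25 for *Cpr65Ec* and -0.73 to 0.40 for *Cpr67B*. The median log2 fold change of the cuticle genes tested was taken over a different set of genes in most alternatives. It was -0.37 with limma-voom (32 genes), -0.34 with the block (28 genes), 1.26 with no filter (90 genes) and 0.83 in DESeq2 (46 genes). When each library was left out it was -0.24 to 1.09 (27 to 41 genes). With rRNA and mitochondrial genes out of the denominator the mean share was 1.02% across wild-type libraries against 0.890% across *Orco* mutants. At 10 counts the *Orco* mutant libraries held 34.4 of the genes on average. The causes of these changes were not tested. The counting error of reads was small beside the spread between libraries for the abundant genes. Depth limits what can be said of genes with fewer than 20 counts.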
